A study of Mus musculus with 6 samples.

Results

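The quadriceps of exercised AR97Q mice had higher signals of 6 genes with no established part in muscle than that of sedentary AR97Q mice. The genes were 1700001O22Rik, Ppm1n, Dmkn, BC049352, Dnase1 and 0610040J01Rik, 6 of the 25005 genes and transcripts tested. They were chosen by their higher signal in exercise on these same arrays, so their differences are given as a description, without a test. AR97Q mice are transgenic mice on the C57BL/6J background and stand as the mouse model for SBMA (spinal and bulbar muscular atrophy), a disease of men that affects motor neurons and muscle. All 6 mice were male, carried the transgene and were sampled at 9 weeks of age, and no array of wild-type muscle was analysed here. The 3 mice of the exercise group had run in a motorized wheel at 5 m/min for 60 min a day, 5 days a week, for 4 weeks from 5 weeks of age, and the 3 mice of the sedentary group had no such training. Total RNA of each mouse was hybridized to 1 single-dye Agilent array.

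Ppm1n belongs by sequence to the PPM family, metal-dependent phosphatases that take phosphate off serine and threonine residues and act in stress kinase signalling, in the control of the pyruvate dehydrogenase complex and in amino acid breakdown. Dnase1 is a secreted endonuclease that cuts DNA outside cells and is known from kidney, salivary gland and pancreas. Dmkn encodes dermokine, a secreted protein of the upper epidermis, whose gene lies between those of 2 other secreted epidermal proteins, suprabasin (Sbsn) and keratinocyte differentiation-associated protein (Krtdap). BC049352, also listed as SMIM35, is named as a small integral membrane protein. 1700001O22Rik and 0610040J01Rik carry only the names of their cDNA clones.

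The promoter sequences of the members are shown because they were read against the binding motifs of factors known to act in muscle and in the response to activity. RefSeq (GRCm38.p6) gave 10 start sites for the 6 genes, each with a window from 250 bases before the start to 50 bases after it. The 3 Dmkn windows all held the AP-1 motif TGACTCA, which is present, on either strand, in 5.20% of 32851 promoter windows of the same length. The first and the second Dmkn windows overlap almost wholly and share 1 copy, 89 bases before the first start, while start 3 lies further into the gene and has a copy of its own, 82 bases before it. The windows of Dmkn starts 1 and 3 are given 5′ to 3′ on the gene's strand, with AP-1 in capitals as it reads on that strand.
Dmkn start 1 (chr7:30763506-30763805, plus strand): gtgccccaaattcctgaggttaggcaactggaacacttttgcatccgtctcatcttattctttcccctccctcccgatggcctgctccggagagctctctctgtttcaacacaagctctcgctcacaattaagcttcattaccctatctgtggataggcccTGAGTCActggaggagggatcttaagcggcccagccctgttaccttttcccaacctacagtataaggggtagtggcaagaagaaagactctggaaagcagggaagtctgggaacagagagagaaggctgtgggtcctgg
Dmkn start 3 (chr7:30776155-30776454, plus strand): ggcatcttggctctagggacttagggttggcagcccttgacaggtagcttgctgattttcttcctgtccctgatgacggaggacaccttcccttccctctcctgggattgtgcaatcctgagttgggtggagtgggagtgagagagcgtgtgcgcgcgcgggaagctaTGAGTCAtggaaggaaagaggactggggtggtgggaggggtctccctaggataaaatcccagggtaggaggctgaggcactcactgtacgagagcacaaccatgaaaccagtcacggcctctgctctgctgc

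The window of the first Dnase1 start held the E-box CACGTG, a motif of clock and Myc factors, 40 bases before the start, and TATAAA 110 bases before it. CACGTG was present in 7.15% of all windows and TATAAA in 13.6%. The single 0610040J01Rik window held CACGTG too, 53 bases before its start. The Dnase1 window is given with the matches in capitals, as they read on the gene's strand, so that the match of TATAAA to the opposite strand appears as TTTATA.
Dnase1 start 1 (chr16:4036786-4037085, plus strand): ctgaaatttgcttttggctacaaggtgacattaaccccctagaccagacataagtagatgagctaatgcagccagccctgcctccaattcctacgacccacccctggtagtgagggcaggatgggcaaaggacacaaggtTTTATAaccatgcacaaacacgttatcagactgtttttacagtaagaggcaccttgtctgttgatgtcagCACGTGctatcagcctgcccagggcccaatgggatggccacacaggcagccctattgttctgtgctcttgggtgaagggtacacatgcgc

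No member window held the MyoD E-box CAGCTG (16.3% of all windows), the MEF2 motif CTANNNNTAG (3.69%) or the cAMP response element TGACGTCA (1.79%). The windows of 1700001O22Rik, Ppm1n and BC049352 held none of the 6 motifs searched. These are matches of letters, and no binding was measured.

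1700001O22Rik (chr2:30795563-30803729) had the largest difference of the 6. Its processed signal, which is the background-subtracted intensity of the spot in linear units, was 964, 820 and 902 on the arrays of exercise mice 1, 2 and 3 and 188, 101 and 76.1 on those of sedentary mice 1, 2 and 3. The groups were far apart, and the exercise arrays lay much closer to each other than the sedentary arrays, of which mouse 1 was the highest. On the log2 scale, relative to the 75th percentile of each array, the mean was 1.81 ± 0.12 (SD, n = 3) in exercise and -1.64 ± 0.83 (SD, n = 3) in sedentary mice, a log2 fold change of 3.45 or 10.96-fold. A second probe of the gene read 481, 479 and 451 in exercise and 80.1, 68.0 and 42.3 in sedentary mice, a log2 fold change of 3.41. Both probes of this gene therefore separated the groups, with sedentary mouse 1 again the highest of its group.

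Ppm1n (chr7:19276805-19280095) was a dim gene in this muscle. Its processed signal was 31.7, 20.7 and 34.1 in exercise and 5.08, 4.84 and 3.27 in sedentary mice, and on none of the sedentary arrays was the probe well above background. The groups did not overlap. With the reported scaling and background subtraction, the mean signal in exercise was at least 3.15-fold higher. This limit sets each sedentary value to the dimmest signal that its array still called well above background. The limit holds for this processing only. With a background correction that adds an offset of 50 to every signal (normexp), the measured log2 difference was 0.83, which is below the limit. Measured means in the reported processing were -3.18 ± 0.40 (SD, n = 3) and -6.36 ± 0.48 (SD, n = 3) on the log2 scale. A second Ppm1n probe, designed on a predicted transcript, was well above background on 1 of the 6 arrays, with 14.4, 5.24 and 10.6 in exercise and 2.69, 4.57 and 15.6 in sedentary mice. On this probe the highest signal came from a sedentary mouse and the groups overlapped.

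Dmkn (chr7:30763756-30781066) had 1 probe, with processed signals of 249, 135 and 100 in exercise and 30.0, 44.0 and 51.6 in sedentary mice. All exercise arrays were above all sedentary arrays, with exercise mouse 1 the highest, and within the sedentary group mouse 1 was the lowest, unlike for the other 5 genes. The log2 means were -0.76 ± 0.66 (SD, n = 3) and -3.11 ± 0.24 (SD, n = 3), a difference of 2.35 or 5.09-fold. The spread within exercise, 2.43-fold between the highest and lowest array on the scaled signal, was wider than that within sedentary mice, 1.39-fold.

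BC049352 (chr9:45195688-45251370) gave processed signals of 295, 186 and 254 in exercise and 91.2, 50.5 and 63.8 in sedentary mice. The groups did not overlap, and the log2 means were -0.08 ± 0.34 (SD, n = 3) and -2.41 ± 0.57 (SD, n = 3), a difference of 2.33 or 5.02-fold. A second probe read 33.4, 12.9 and 23.2 in exercise and 17.5, 11.2 and 14.4 in sedentary mice and was well above background on 3 of the 6 arrays. Its groups overlapped, since sedentary mouse 1 was above exercise mouse 2, and its log2 difference was 1.08.

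Dnase1 (chr16:4036958-4040024) gave processed signals of 72.6, 193 and 93.5 in exercise and 35.0, 31.7 and 28.9 in sedentary mice. Exercise mouse 2 stood above the other exercise mice, and the sedentary mice lay close together below all of them. The log2 means were -1.22 ± 0.73 (SD, n = 3) and -3.48 ± 0.30 (SD, n = 3), a difference of 2.26 or 4.78-fold. A second probe read 50.6, 145 and 69.3 in exercise and 21.7, 18.9 and 14.4 in sedentary mice, a log2 difference of 2.62. Both Dnase1 probes thus ordered the exercise mice alike, with mouse 2 first, mouse 3 next and mouse 1 last.

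0610040J01Rik (chr5:63811657-63899626) had 1 probe, with processed signals of 1150, 1063 and 1095 in exercise and 677, 535 and 564 in sedentary mice. It had the smallest difference of the 6 and the tightest exercise group, with log2 means of 2.11 ± 0.06 (SD, n = 3) and 0.74 ± 0.34 (SD, n = 3) and a difference of 1.38 or 2.60-fold. In the order of log2 fold changes over all 25005 genes and transcripts it was at place 213, while 1700001O22Rik, Ppm1n, Dmkn, BC049352 and Dnase1 were at places 2, 3, 15, 16 and 20. It was therefore less strongly raised than the others, and the place of Ppm1n rests on sedentary values at background.

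**Figure D1:**
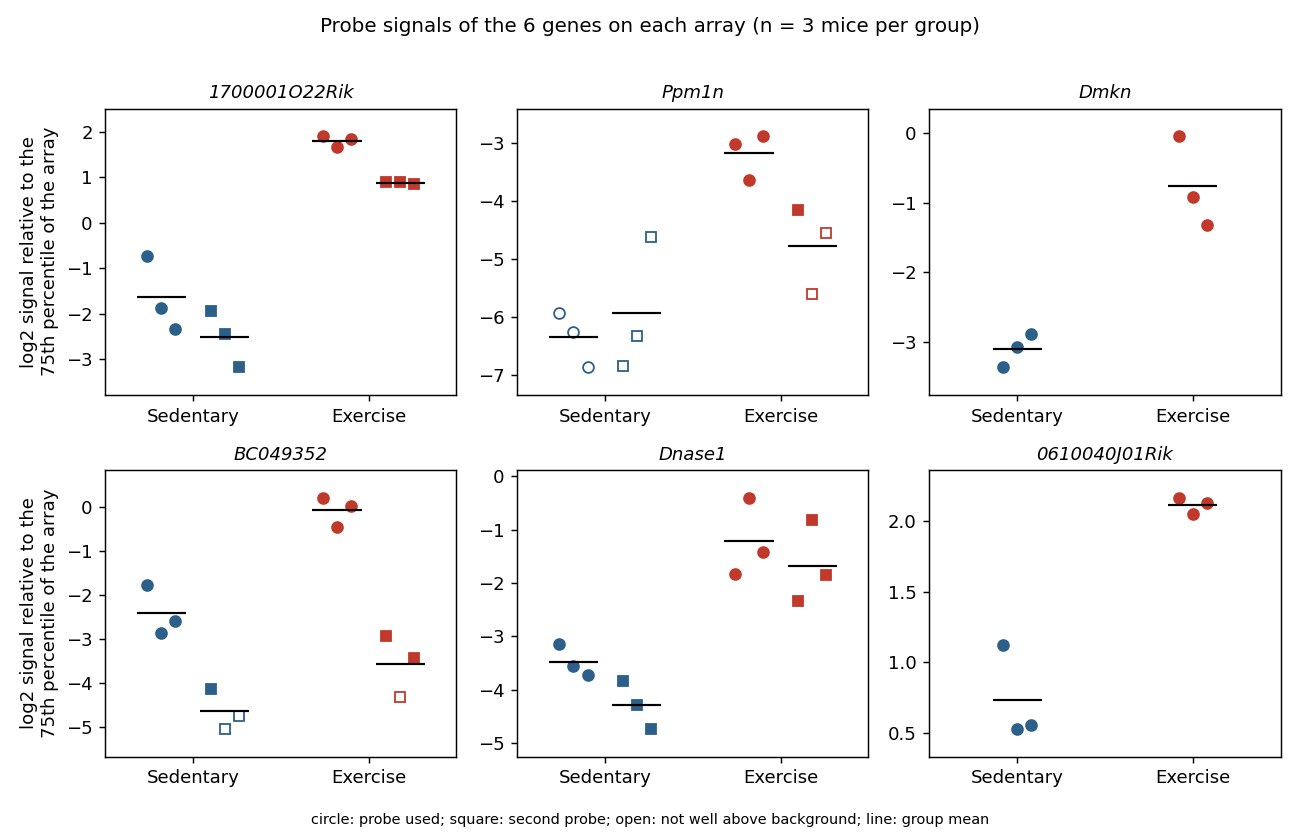
Signals of the 6 genes on each array, as log2 of the processed signal relative to the array's 75th percentile (y axis), for sedentary (blue) and exercise (red) mice from left to right as mouse 1, 2 and 3. Circles are the probe used and squares the second probe, open symbols were not well above background and lines are group means (n = 3); the circles of the groups do not overlap for any of the 6 genes, while the squares of Ppm1n and BC049352 do.

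All 6 genes passed the study's threshold of an adjusted p under 0.05 with a log2 fold change of at least 1 (limma), which 1.72% of all genes and transcripts tested passed upward, and all 6 had every exercise array above every sedentary array, as did 25.0% of all tested. These counts follow from the choice of the genes and are no support for their rise. The Ppm1n probe was well above background on 3 exercise and 0 sedentary arrays. It was therefore tested through the exercise arrays alone, and its place in both counts rests on sedentary values at background. Of the 10 probes of the 6 genes, 8 separated the groups.

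The 6 genes differed in how single mice placed. Sedentary mouse 1 was the highest of its group for 5 of the 6 genes, and it was so for 85.1% of the 429 upregulated genes and transcripts. For 49.9% of all genes and transcripts tested it was the sedentary array nearest to the exercise mean. The array positions in the file headers put this mouse on the same strip of the slide as the 3 exercise mice, with sedentary mice 2 and 3 on another strip, so that the comparison within a strip rests on this 1 sedentary mouse. Within that strip, without a replicate on the sedentary side, the log2 difference was 2.53 for 1700001O22Rik, 2.61 for Dmkn, 1.69 for BC049352, 1.93 for Dnase1 and 0.99 for 0610040J01Rik, against 3.45, 2.35, 2.33, 2.26 and 1.38 with all arrays. All 5 were still higher in exercise, 4 of them by less, no such value is given for Ppm1n, whose sedentary signals were at background, and strip and mouse cannot be told apart among the sedentary samples. Exercise mouse 2 was the lowest of its group for 4 genes and the highest for Dnase1. The share of all genes with this order was not computed, so the count is a description only.

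The genes whose values ran closest to each member were sought among the 15747 tested genes with a RefSeq name, not among all 25005 tested. The measure was the root mean square difference of centred log2 values over the 6 arrays. 1700001O22Rik and Ppm1n were near to each other, at 0.34, and shared both other near genes, Smox, the spermine oxidase, and 2310065F04Rik, at 0.45 and 0.50 for 1700001O22Rik and at 0.34 and 0.27 for Ppm1n. Every distance to Ppm1n uses sedentary values that were not well above background, so it is set in part by background. BC049352 ran closest to Kcng4, a modifier subunit of voltage-gated potassium channels, at 0.19, followed by 7420701I03Rik at 0.19 and the transcription cofactor Cited4 at 0.20. Dnase1 was nearest to the chemokine Cxcl1, at 0.24, then to Cd27, a receptor of lymphocytes, at 0.38 and Tbc1d10c at 0.41. Dmkn was nearest to Nppc, which encodes C-type natriuretic peptide, at 0.41, then to Otog at 0.45 and Dlx6 at 0.47, of which Otog and Dlx6 had no sedentary array well above background. 0610040J01Rik was nearest to Aurka, Gm3772 and Magix, at 0.07, 0.07 and 0.08. Since the mean difference between the groups dominates this measure, likeness here is mostly a like size of that difference.

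The neighbourhoods of the 6 genes in the genome were compared with the members, taking the 5 nearest annotated genes on each side. Of these 60 genes, 28 had a probe that could be tested. At an adjusted p under 0.05, 8 of them were higher in exercise and 0 lower, against 11.5% higher and 6.15% lower of all genes tested. The count was 4 higher and 8 lower without scaling between arrays, and 0 higher with the replicate block, with the strip as a block or without any 1 mouse other than sedentary mouse 1. Their median log2 fold change was 0.20, beside 0.03 over all genes tested. The difference was spread unevenly over the 6 loci, with 3 of the 8 genes around Dmkn and 3 around Ppm1n.

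Around Dmkn, both epidermal neighbours were higher. Krtdap, 6.84 kb away, read 180, 216 and 157 in exercise and 136, 117 and 125 in sedentary mice, and Sbsn, 7.62 kb away on the other side, read 619, 610 and 400 in exercise and 323, 452 and 416 in sedentary mice. After scaling to the 75th percentile, which was 251 to 257 in exercise and 310 to 384 in sedentary arrays, neither gene overlapped between the groups. Krtdap was higher by 1.01 on the log2 scale (SE 0.17, limma adjusted p = 0.024), with 1.10 and 1.56 on its other probes, and Sbsn by 0.91 (SE 0.18, adjusted p = 0.028). The other gene of this locus that passed, Tmem147, an endoplasmic reticulum membrane protein, was higher by 0.61 (adjusted p = 0.024). Ffar2, a fatty acid receptor on the far side of Krtdap, had -0.47 (adjusted p = 0.49). Without scaling between arrays Tmem147 had 0.14 (limma adjusted p = 0.33), Sbsn 0.44 (0.13) and Krtdap 0.54 (0.028).

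Around Ppm1n, the next gene, Rtn2, which encodes a reticulon of the endoplasmic and sarcoplasmic reticulum, was higher by 0.97 (SE 0.15, limma adjusted p = 0.023) at 2.53 kb. Fosb, an AP-1 subunit that is induced by activity, lies 22.6 kb away and read 474, 556 and 432 in exercise and 238, 91.7 and 194 in sedentary mice, a log2 fold change of 2.06 (SE 0.40, adjusted p = 0.027). Opa3, a mitochondrial protein gene, was higher by 0.38 (adjusted p = 0.036), but had -0.10 without scaling between arrays, and Vasp, the nearest gene on the other side, had 0.33 (adjusted p = 0.084).

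Near BC049352, Scn4b, a sodium channel beta subunit 41.5 kb away, read 8734, 8282 and 9782 in exercise and 4899, 2852 and 2594 in sedentary mice, and was higher by 1.90 on the log2 scale (SE 0.32, limma adjusted p = 0.024). The gene next to BC049352 on the other side, Il10ra, an interleukin receptor, had -0.02 (adjusted p = 0.88). Tmprss4, which overlaps BC049352, was not well above background on enough arrays to be tested. Next to 1700001O22Rik, Ntmt1, an N-terminal methyltransferase, was higher by 0.57 (adjusted p = 0.026) at 4.22 kb. Without scaling between arrays Ntmt1 had 0.096 (limma adjusted p = 0.47). The other tested neighbours of 1700001O22Rik did not pass.

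No tested neighbour of Dnase1 or 0610040J01Rik passed the threshold. Trap1, a mitochondrial chaperone gene that overlaps Dnase1, had a log2 fold change of 0.12 (limma adjusted p = 0.30), and Slx4 on the other side had -0.18 (adjusted p = 0.29). Rell1, which overlaps 0610040J01Rik, had -0.09 (adjusted p = 0.71). The overlapping genes thus had differences far below those of the members.

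**Figure D2:**
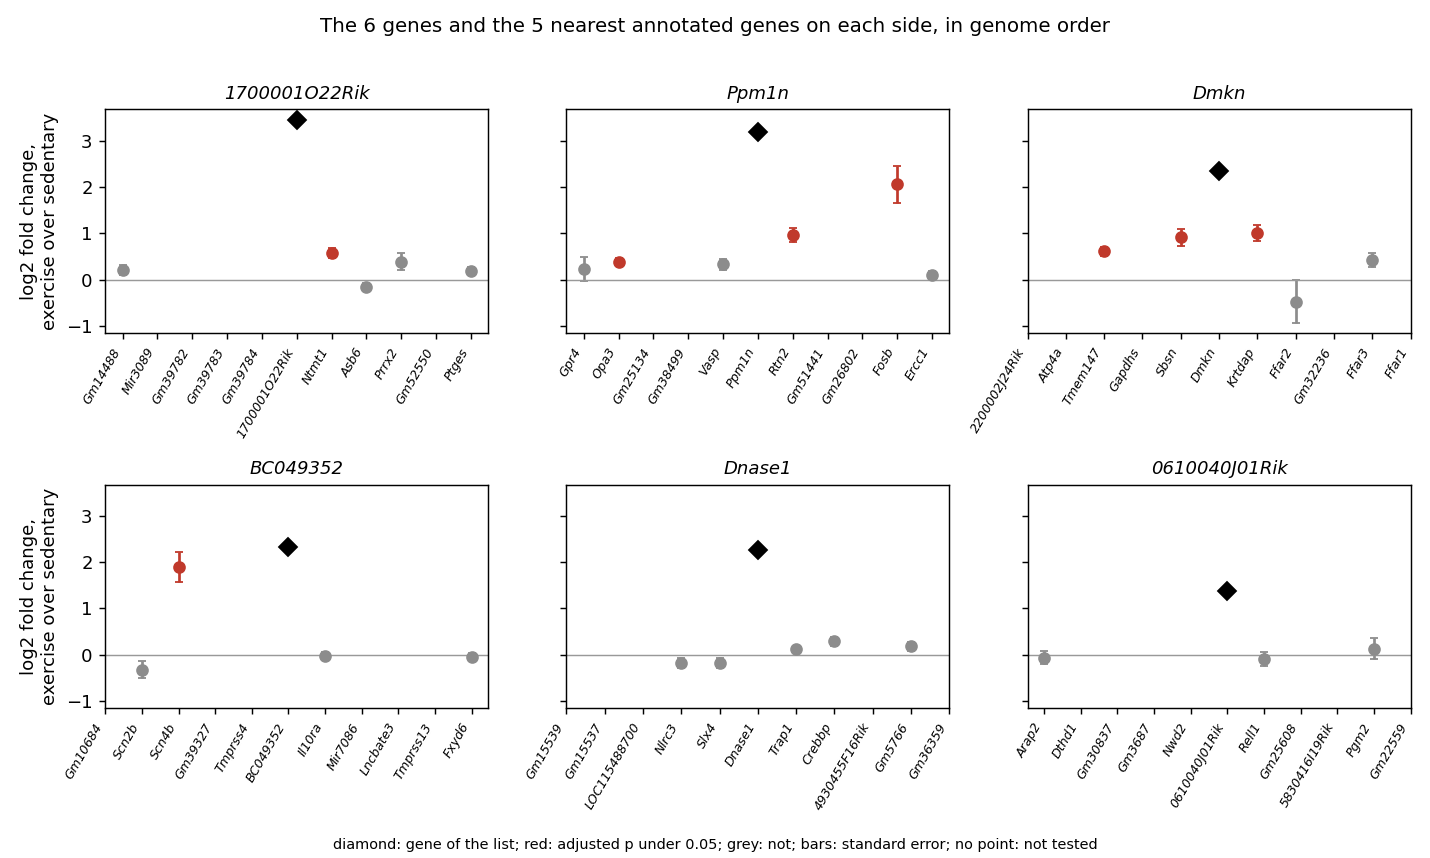
Log2 fold changes (y axis, exercise over sedentary) of the 6 genes (diamonds, a description without error) and their 5 nearest annotated genes on each side in genome order (x axis); bars are standard errors of the limma fit over 6 arrays, red marks an adjusted p under 0.05 and genes without a point were not tested. The neighbours of Dmkn on both sides, at 0.91 and 1.01, and Fosb near Ppm1n, at 2.06, stand above 0, while those of Dnase1 and 0610040J01Rik lie between -0.18 and 0.29.

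The relatives of Ppm1n were compared next. All 18 PPM family genes of the list were tested. Their median log2 fold change was 0.13, beside 0.03 over all genes tested. At an adjusted p under 0.05, 7 of the 18 were higher and 0 lower, against 11.5% higher and 6.15% lower of all genes tested. The count was 1 higher and 6 lower without scaling between arrays, 3 and 0 with quantile normalization and 1 and 1 with the deposited table. It was 0 higher with either block or without any 1 mouse other than sedentary mouse 1. Ppm1j had the largest difference upward, with 1482, 1467 and 1562 in exercise and 1084, 936 and 821 in sedentary mice and a log2 fold change of 1.15 (SE 0.18, limma adjusted p = 0.024). The phosphatase of the pyruvate dehydrogenase complex, Pdp1, was higher by 0.86 (adjusted p = 0.033), and its second form, Pdp2, by 0.36 (adjusted p = 0.045), although the other Pdp2 probe had -0.06. Ppm1l (0.75), the mitochondrial Pptc7 (0.61), Ppm1b (0.50) and Ppm1a (0.46), which act on stress kinases or in mitochondria, also passed, with adjusted p between 0.025 and 0.046. Ppm1k, the mitochondrial phosphatase of branched-chain amino acid breakdown, had 0.29 (adjusted p = 0.074). The largest difference of the family was that of Ppm1e, -1.19 (SE 0.36, adjusted p = 0.067), with every exercise array below every sedentary array, and Phlpp2 had -0.37 (adjusted p = 0.069). Without scaling between arrays, Ppm1a and Pdp2 had -0.017 and -0.12, so that their direction depended on it. In that setting Ppm1b (0.025), Pptc7 (0.14), Ppm1l (0.28) and Pdp1 (0.39) did not pass, with limma adjusted p of 0.059 to 0.85. Ppm1j, at 0.68, still passed.

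Of 14 DNase and DNA exonuclease genes related to Dnase1 by activity, 11 were tested, with a median of -0.15. Among these, 3 were higher and 1 was lower, against 11.5% higher and 6.15% lower of all genes tested. The count was 0 higher and 6 lower without scaling between arrays and 1 and 1 with the deposited table, and it was 0 in both directions with either block or without any 1 mouse other than sedentary mouse 1. The mitochondrial nuclease Endog was higher by 0.73 (limma adjusted p = 0.025) and Tatdn1 by 0.45 (adjusted p = 0.027). Dnase1l1, the muscle-expressed homologue of Dnase1, was higher by 0.37 (adjusted p = 0.045). Without scaling between arrays Tatdn1 and Dnase1l1 had -0.026 and -0.10, and Endog had 0.26 (limma adjusted p = 0.11). Dffb, the DNase that cuts nuclear DNA in apoptosis, had -0.73 (adjusted p = 0.030). It was dim, with 21.1, 25.5 and 23.7 in exercise and 38.7, 61.5 and 64.8 in sedentary mice. With the normexp background correction Dffb had -0.07 (adjusted p = 0.46), and with quantile normalization its adjusted p was 0.0505. Dnase2a, the lysosomal DNase, had -0.17 and Dnase1l2 had -0.27, neither past the threshold.

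**Figure D3:**
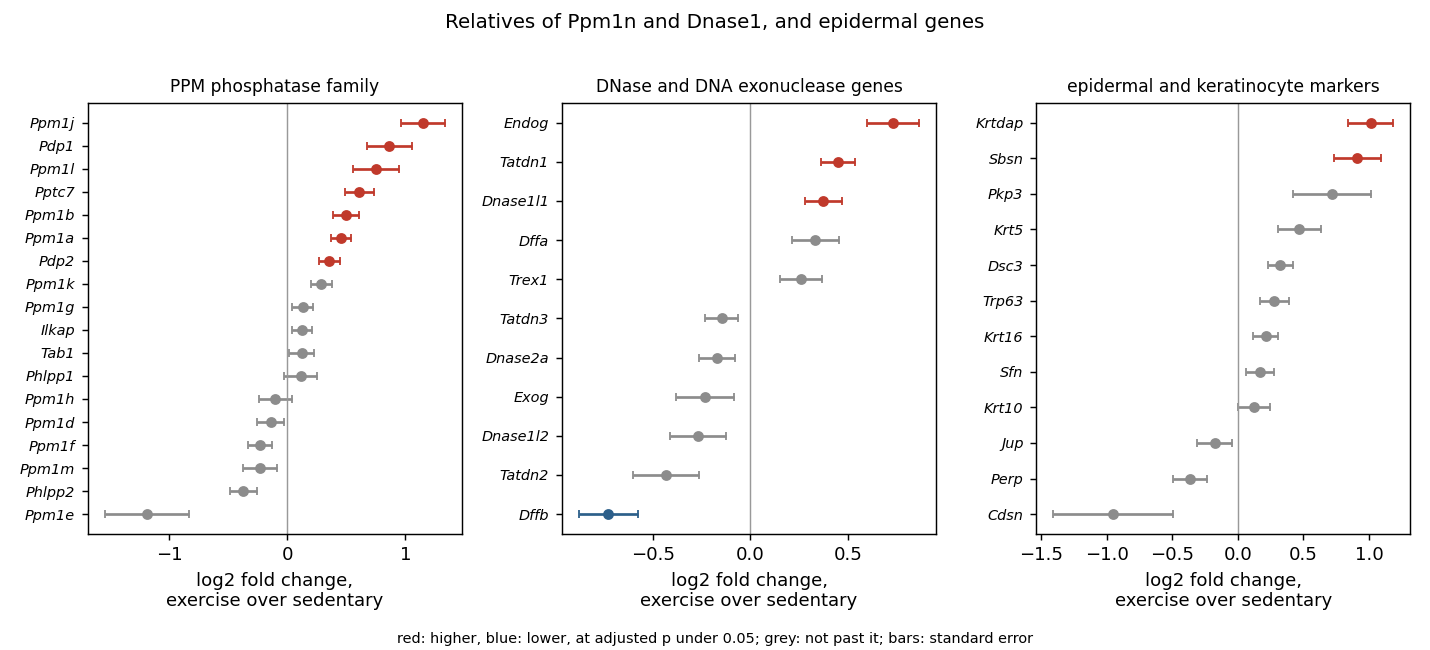
Log2 fold changes (x axis, exercise over sedentary, with standard errors of the limma fit over 6 arrays) of the tested genes of the PPM family (18), of the DNase and exonuclease list (11) and of the epidermal list (12). Red genes were higher and blue genes lower at an adjusted p under 0.05; Ppm1j at 1.15, Endog at 0.73 and Krtdap at 1.01 lead the 3 lists.

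The muscle origin of the samples and other cell types were then read from marker genes. Beside the counts below stand 11.5% higher and 6.15% lower of all genes and transcripts tested, at an adjusted p under 0.05. All 18 skeletal muscle markers were well above background on all arrays, and 13 of the 18 were higher in exercise, with a median of 0.82 and a summed signal of 8032 to 8953 times the 75th percentile in exercise and 4264 to 5846 in sedentary mice. Of the epidermal list, with 12 genes tested, Krtdap and Sbsn passed in the reported fit, and the median log2 fold change was 0.24. Cdsn (-0.95), Perp (-0.36) and Jup (-0.18) were lower in exercise, none past the threshold, and the other tested genes of the list were above 0. The keratinocyte genes Krt14, Krt1, Krt15, Ivl, Dsg1a, Dsg3, Dsp, Pkp1 and Lgals7 had no array well above background. The number of epidermal genes that were higher was 6 with normexp, 8 with no filter on dim probes, 4 without sedentary mouse 1, 1 (and 3 lower) without scaling between arrays, and 0 with either block or without any 1 of the other mice. The summed signal of the epidermal list was 21.0 to 22.4 in exercise and 17.9 to 19.8 in sedentary mice. Its unit, each array's 75th percentile, was 251 to 257 in exercise and 310 to 384 in sedentary arrays, so the order of the groups depended on the scaling. The brightest tested gene of the list, Trp63, had log2 means of 3.40 in exercise and 3.12 in sedentary mice (limma adjusted p = 0.13). Of 12 kidney tubule markers, 5 were tested and 0 passed, and Umod, Slc12a1, Slc12a3, Lrp2 and Calb1 had no array well above background. Of 14 exocrine gland markers, 7 were tested and Cel alone passed, by 0.45 (limma adjusted p = 0.043), with summed signals of 13.4 to 15.6 in exercise and 15.5 to 17.6 in sedentary mice. Of 15 testis germ cell markers, 3 were tested and 0 passed. Of 8 tested neutrophil markers 0 were higher and 2 lower, of 7 tested lymphocyte markers 0 were higher and 1 lower, and of 11 tested Schwann cell and nerve markers 0 were higher and 3 lower. Of 8 smooth muscle markers 1 was higher and 3 were lower, and among 10 endothelial, 10 fibroblast, 10 macrophage and 5 red blood cell markers tested 0 passed in either direction. Adipocyte markers had a median of -0.58, with 1 of 10 higher, and summed signals that overlapped between the groups, 275 to 745 in exercise and 490 to 633 in sedentary mice. In whole muscle a change in the share of a cell type and a change of RNA within cells cannot be told apart, and the part of these differences in the members' values was not tested.

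The fold changes of the 6 genes were positive under every alternative tried. With 1 array left out or with a block this sign was fixed in advance, since the groups did not overlap. The size of the fold changes moved with the treatment of background. The normexp background correction started from the median signals of spot and local background and added an offset of 50 to every signal. With it the log2 difference was 1.30 for Dnase1 and 0.83 for Ppm1n. The differences of Ppm1n are measured ones against sedentary signals at background. The calls of the related genes named here needed nearly all arrays. For Krtdap, Sbsn, Rtn2, Fosb, Scn4b and Ppm1j, leaving out sedentary mouse 1 kept the limma adjusted p between 0.0076 and 0.047. Leaving out any 1 of the other 5 mice put each of these 6 genes at 0.061 to 0.096, and the strip as a block at 0.15 to 0.20. Their log2 fold changes lay between 0.81 and 2.43 when 1 array was left out. Other related genes reached higher values. Without sedentary mouse 2 the limma adjusted p was 0.15 for Dnase1l1, 0.13 for Pdp2 and 0.14 for Ppm1l.

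**Figure D4:**
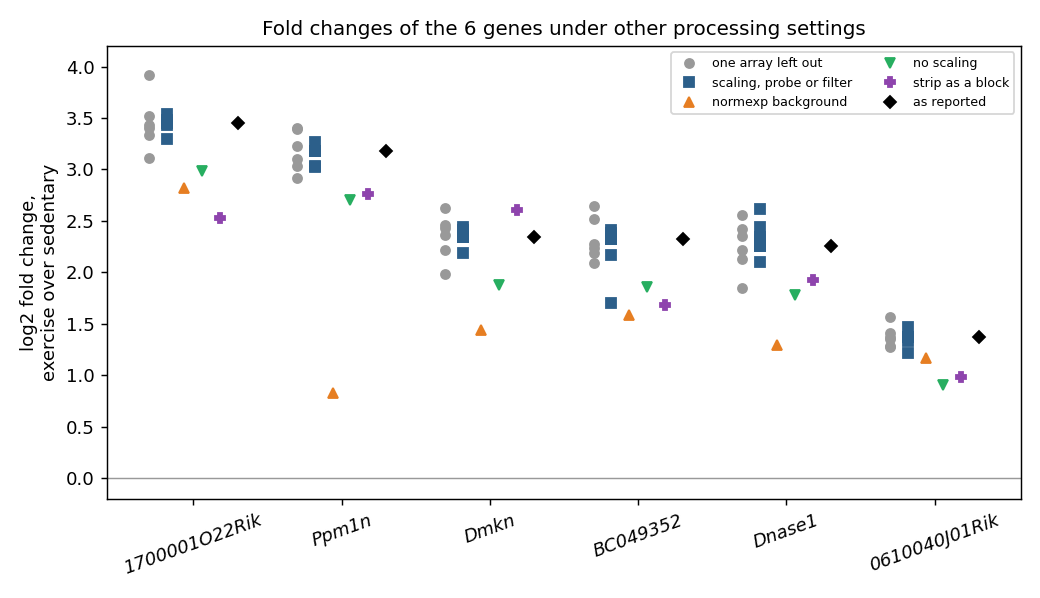
Log2 fold changes (y axis, exercise over sedentary) of the 6 genes under the reported processing (black diamonds) and the alternatives, each symbol 1 setting. The values run from 0.83 for Ppm1n with normexp background correction to 3.92 for 1700001O22Rik with 1 array left out. None is below 0, a sign that was fixed in advance with 1 array left out or with a block.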

How the data were processed

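Total RNA of quadriceps, extracted with TRIzol, was labelled with Cy3 and hybridized to SurePrint G3 mouse arrays, which were read with Agilent Feature Extraction 12.1.0.3. The deposited scanner files hold a processed signal per spot, an intensity on a linear scale after background subtraction. The authors also deposited a table of intensity values for all arrays, which was each array's processed signal times 1 factor of 1.33 to 1.88 and served as an alternative.

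Control spots (3671 of 62976 per array) and outlier spots were left out, log2 was taken of the deposited intensities, the mean over spots was formed for each probe, and arrays were aligned on their 75th percentile. After removal of 22 probes with missing values, a probe was kept if well above background on at least 3 arrays. No spot was saturated, and between 54.6 and 59.9% of probes per array exceeded background clearly; the number of arrays limits the precision. Probes were named through their transcript accessions with RefSeq (GRCm38.p6): 34551 matched and 22032 kept the array's own identifier. For a gene with several probes, that with the highest mean was used. Groups were compared over all 25005 genes and transcripts with limma 3.58.1 in R 4.3.3 (two-sided, no covariates, Benjamini-Hochberg over all tested), after a test on simulated data. Nothing says that the mice were other than separate animals, but p-values measure only the spread between these arrays.

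The members, the gene lists and the motifs were chosen with earlier results of these data known, so no p is given for the members. The genes named beside them are the 3 with a RefSeq name most like each member over the 6 arrays. Also named are the list genes with an adjusted p under 0.05 or the highest signal, and the nearest tested neighbours. Others named as markers or as members of a pathway were chosen after their values were seen. Alternatives comprised other scalings, background correction (normexp, offset 50), filters, probe rules, the deposited table, the replicate number as a block, a trended robust fit, thresholds and each array left out; a block for the slide strip was added after seeing the data. Protein sequences were not used here.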

Additional observations from a re-analysis of the deposited data

How the results depend on the processing

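With 1 array left out or with a block, the sign of the differences was fixed in advance, since the groups did not overlap for any of the 6 genes. The log2 fold changes of the 6 genes were above 0 under all alternatives run. They moved by more than the spread between replicates with no scaling (0610040J01Rik 0.90, Ppm1n 2.71), with normexp (1700001O22Rik 2.82, BC049352 1.59, Dmkn 1.44, Dnase1 1.30, Ppm1n 0.83), with the mean of the probes (BC049352 1.70) and with the strip as a block (0610040J01Rik 0.99, 1700001O22Rik 2.53, BC049352 1.69). With 1 array left out they were 3.11 to 3.92 for 1700001O22Rik, 1.99 to 2.63 for Dmkn, 2.10 to 2.65 for BC049352, 1.85 to 2.56 for Dnase1 and 1.27 to 1.57 for 0610040J01Rik. The values for Ppm1n, 2.92 to 3.41 with 1 array left out, are differences of measured means against sedentary signals at background and say nothing about stability. Ppm1n has no value with a filter on all arrays, since it was not well above background in sedentary mice.

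Upregulated genes numbered 429 and downregulated genes 265. The counts were 127 and 2194 with no scaling, 192 and 60 with normexp, 237 and 553 with the deposited table, and 2867 and 1539 with no fold minimum; upregulated genes were 714 with no filter, and downregulated genes 156 with a filter on all arrays. With 1 array left out they ranged from 0 to 715 and from 0 to 481, with 0 upregulated without any 1 of the arrays other than that of sedentary mouse 1 (6680 to 8146 genes had an unadjusted p under 0.05). With the strip as a block they were 0 and 3 (4828 at an unadjusted p under 0.05). With the replicate block both were 0 (8582 at an unadjusted p under 0.05); mice of the same number shared only a number, with correlations of deviations of 0.02, 0.08 and 0.04. No scaling shifted the median of all genes to -0.45 and reversed Dnase1l1 (-0.10), Opa3 (-0.10), Pdp2 (-0.12), Ppm1a (-0.017) and Tatdn1 (-0.026); the median was 0.18 with no filter, 0.11 with subtraction of the array median and -0.13 with the deposited table. The causes were not tested beyond what each setting changes.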
